A study of Rattus norvegicus with 12 samples.

Results

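The genes described here are those of the 2'-5'-oligoadenylate synthetase (OAS) family and the interferon-inducible sensors of foreign RNA and Z-form nucleic acid in the cytoplasm. They were taken by name, and for each the row of the expression table that the array's annotation pairs with that gene alone was used. Of 10 listed genes, 8 had such a row, among 18166 genes in all: Oas1a, Oas1b, Oas2, Oasl, Oasl2, Ifih1, Dhx58 and Zbp1. Oas3 and Eif2ak2 were not analysed here. Transcript levels were measured on 12 whole-transcript arrays of primary astrocytes from the cerebral cortex of Sprague-Dawley rats aged 1 day, in 4 groups of 3. All cultures had been transfected with an siRNA, and had been kept in serum-free MEM for 2 days to remove microglia and meningeal cells. Cells given control siRNA were left untreated (siCon), treated for 3 h with interferon-γ (siCon_IFNg), or treated for that time with interferon-γ together with GW, a compound known here by this name only (siCon_IFNg_GW). The last group received SHP siRNA before the same combined treatment (siSHP_IFNg_GW). There was no group with GW alone, with SHP siRNA alone or with SHP siRNA and interferon-γ without GW. Each group had arrays whose titles bear the numbers 1, 2 and 3. The labels do not say whether these came from separate cultures, and the p-values therefore rest on a spread between arrays that may be technical. All levels and differences below are on the log2 scale, on which a difference of 1.00 is 2.00-fold.

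OAS enzymes bind double-stranded RNA and then make short 2'-5'-linked oligoadenylates, which activate RNase L, a nuclease that cuts viral and cellular RNA. Ifih1 (MDA5) is a helicase that senses long double-stranded RNA and signals through the adaptor Mavs, and Dhx58 (LGP2) is a related helicase without the signalling domains. Genes of this kind are kept low in resting cells and are switched on by type I interferons and, in part, by interferon-γ. Interferon-stimulated response elements (ISREs) in their promoters are bound by interferon regulatory factors. Interferon-γ acts first through gamma-activated sites (GAS) and through Irf1. SHP, encoded by Nr0b2, is a nuclear receptor without a DNA-binding domain that represses transcription.

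The OAS genes lie together on chromosome 12 of the rat. In RefSeq annotation of build GRCr8, Oas1a spans 41330423 to 41341130, Oas1b 41385184 to 41395891 and Oas2 41464568 to 41492036, while Oasl (47343551 to 47356509) and Oasl2 (47369829 to 47383337) form a pair farther along. Ifih1 (67635924 to 67683968) and Zbp1 (182411665 to 182427604) are on chromosome 3, and Dhx58 (86120677 to 86132095) is on chromosome 10. RefSeq promoter windows, from 250 bases before to 50 bases after the start of a transcript, were matched for 5 of the 8 measured genes. The ISRE core (gaaanngaaa, sought on both strands) was present in 4 of these, those of Oas1a, Oas1b, Oasl2 and Ifih1, and in 3.92% of all 33469 windows. Oasl had no match to these letters in its window. The stretches around the cores are printed 5′ to 3′ on the gene's strand, because they show how close the copies of OAS1 are to each other; capitals mark the ISRE cores, and Oas1i, a further copy of OAS1, is shown for comparison.
Oas1a, chr12:41330389-41330448, plus strand: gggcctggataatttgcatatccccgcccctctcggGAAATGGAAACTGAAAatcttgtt
Oas1b, chr12:41395888-41395947, minus strand: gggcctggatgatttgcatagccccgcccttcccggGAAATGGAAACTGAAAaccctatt
Oas1i, chr12:41285154-41285213, plus strand: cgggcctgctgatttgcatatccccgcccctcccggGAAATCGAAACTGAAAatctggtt
Oasl2, chr12:47383319-47383378, minus strand: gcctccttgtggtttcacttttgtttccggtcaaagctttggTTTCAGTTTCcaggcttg
Ifih1, chr3:67684010-67684069, minus strand: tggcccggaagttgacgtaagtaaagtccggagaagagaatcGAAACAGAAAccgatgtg
In the 3 copies of OAS1 a pair of cores overlaps, so that GAAA occurs 3 times in a row with spacers of 2 bases. Positions are counted from the transcript start of each window, which lies inside the annotated gene for Oas1a, Oas1b, Oas1i and Oasl2. The first core starts 41 bases before that start for Oas1a, 59 for Oas1b and 36 for Oas1i. Of each printed stretch of 60 bases, 26 lie inside the annotated gene for Oas1a, 4 for Oas1b, 13 for Oas1i, 19 for Oasl2 and 0 for Ifih1. Oas1a and Oas1b share an unbroken run of 20 bases there, cgggaaatggaaactgaaaa. Within the printed stretches Oas1a and Oas1i share a longer run, of 21 bases before their cores, and Oas1b and Oas1i share at most 11. In Ifih1 the core starts 59 bases upstream, and in Oasl2 it lies on the opposite strand, 151 bases upstream. The windows of Oas3 and Eif2ak2, which had no expression row, also hold a core. The GAS core (ttcnnngaa) was found in the windows of Oas1a and Oas1b, 199 and 213 bases upstream, and in 8.87% of all windows. That of Oas1e, another copy of OAS1, held it too, 59 bases upstream. Such matches describe the letters only.

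The background level was set at 5.39, the 95th percentile of the mean levels of 227 genes of olfactory and vomeronasal receptors, which belong to sensory neurons. The median level of all genes was 6.55, and array medians over the named genes ran from 6.49 to 6.58. Astrocyte markers were high on every array (log2 of their summed level 13.87 to 14.32, 10 genes, 0 below background on all arrays). Microglia markers were also present, with 0 of 14 below background on all arrays and a log2 summed level of 12.68 to 13.32 in siCon, 12.74 to 12.97 in siCon_IFNg, 12.23 to 12.46 in siCon_IFNg_GW and 12.31 to 12.56 in siSHP_IFNg_GW. Meningeal and vascular markers (7 genes) were present as well. Over the 4 groups their log2 summed level was 10.41 to 10.67 in number 1 and 11.80 to 12.12 in numbers 2 and 3. The levels below are therefore those of the mixed culture. In such a culture fewer cells of a type and less RNA per cell cannot be told apart. Nr0b2, the target of the SHP siRNA, was below background on all 12 arrays (4.96 ± 0.13 in siCon, 4.80 ± 0.26 in siCon_IFNg, 4.80 ± 0.11 in siCon_IFNg_GW and 4.96 ± 0.16 in siSHP_IFNg_GW, SD, n = 3), so the array does not show whether the siRNA lowered its target.

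The arrays numbered 1 stood apart in all 4 groups, and this bears on every result below. The series text counts 4 arrays of an earlier series among those used, without saying which. Whether these are the arrays numbered 1 is thus not known, and the part of such an origin in the difference was not tested. With group taken into account, 8 of 8 members were higher in number 1 than in numbers 2 and 3 by limma, as were 21.3% of all genes, while 17.9% were lower (39.2% in either direction). The differences ran from 0.52 for Oas1a (SE 0.09, adjusted p = 0.00063) to 3.72 for Oasl (SE 0.25, adjusted p = 8.4e-07), with a median of 1.68. Number 1 was set apart because earlier results of these data had shown that it differed. These p-values, and those of the fits without number 1, thus come from a split chosen on the same data. In untreated cells the median level of the 8 genes was 9.36 on the array numbered 1 and 6.58 and 6.45 on those numbered 2 and 3. The microglia markers were higher in siCon number 1 too, by a median of 0.54 (13 of 14 genes). In siCon_IFNg, siCon_IFNg_GW and siSHP_IFNg_GW their medians were 0.23, 0.36 and 0.27. The astrocyte markers had a median of -0.30 in siCon (higher in number 1 for 3 of 10 genes). The meningeal and vascular markers were lower in siCon number 1 by a median of 1.95 on the log2 scale (higher in number 1 for 1 of 7 genes). Of these, Col1a1, Col1a2, Dcn and Lum were lower (Col1a1 8.06 against 10.63 and 10.74 in numbers 2 and 3). Pdgfrb was nearly level (9.50 against 9.49 and 9.61), Vwf lay near background, and Cldn5 was below it in siCon. The part of these markers in the results was not tested. The comparisons below therefore have values for the whole set of arrays, values with the number as a block, and values for numbers 2 and 3 alone, where 2 arrays a group remain. Of these, only the fit with the block has a term for the number. The block takes each change to be the same in all numbers. Changes that differ between numbers are thus averaged there and widen its SE. Without a term for the number, the gap between number 1 and the others widens the SE over all arrays. With interferon-γ the SE was 1.55 for Oasl and 0.84 for Oas1b, against 0.34 and 0.56 with the block. A member that did not pass over all arrays is thus not shown to be unchanged.

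**Figure D1:**
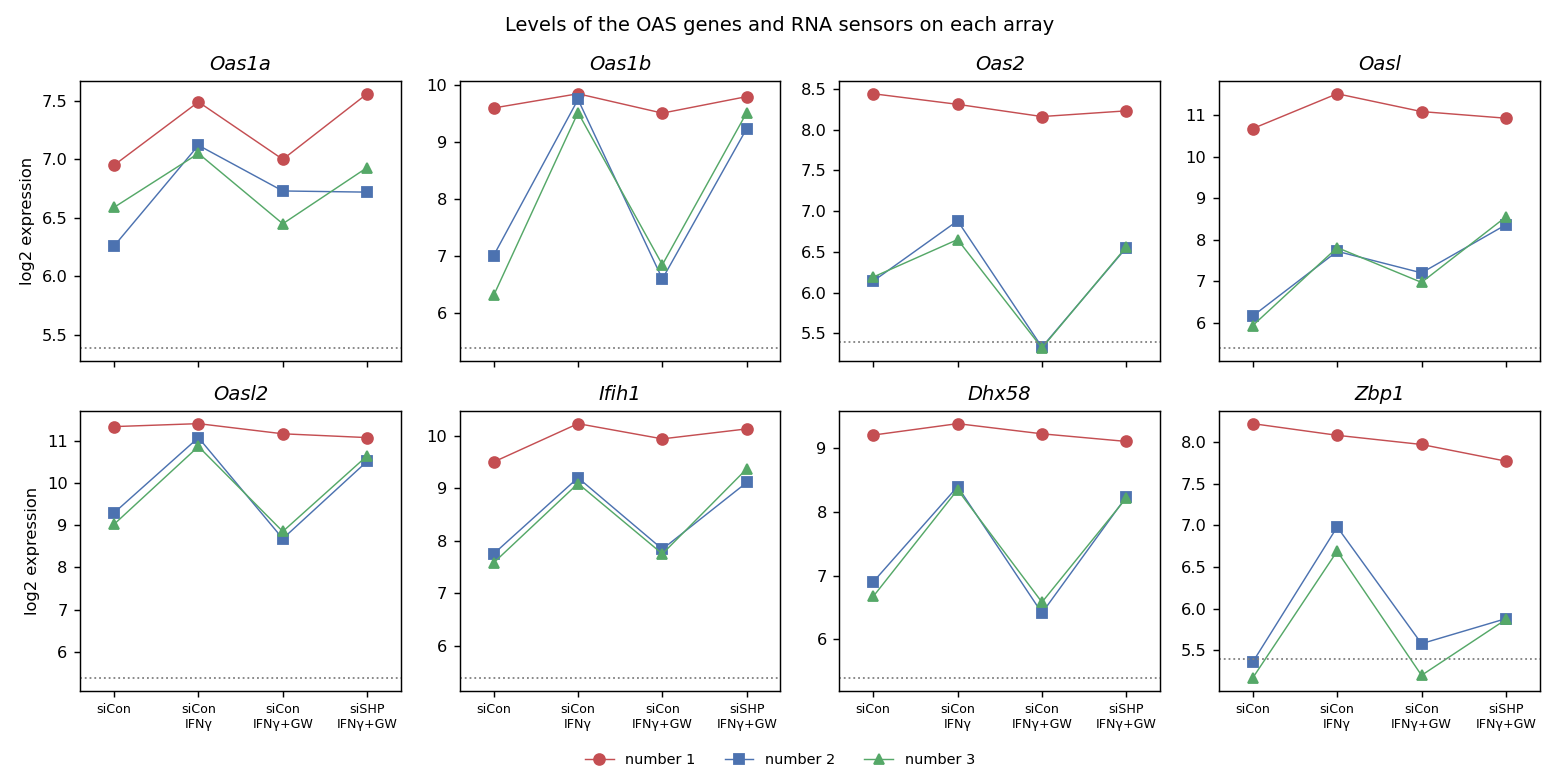
Log2 expression of the 8 measured genes (1 panel each) on the 12 arrays, by group. Points are single arrays, joined by title number (circles 1, squares 2, triangles 3), and the dotted line is the background level of 5.39; the points of number 1 lie highest in every group, and those of numbers 2 and 3 are higher in siCon_IFNg than in siCon and lower again with GW.

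Of the OAS1 copies, Oas1b had the wider range. Its level was 9.60, 7.01 and 6.31 in siCon (numbers 1, 2 and 3), 9.85, 9.75 and 9.52 in siCon_IFNg, 9.51, 6.60 and 6.85 in siCon_IFNg_GW, and 9.80, 9.24 and 9.52 in siSHP_IFNg_GW. All 3 arrays with interferon-γ alone and all 3 with SHP siRNA were thus high, whereas in siCon and with GW only the array numbered 1 was. Oas1a read 6.95, 6.26 and 6.59 in siCon, 7.49, 7.12 and 7.05 in siCon_IFNg, 7.0, 6.73 and 6.45 in siCon_IFNg_GW, and 7.56, 6.72 and 6.93 in siSHP_IFNg_GW. It was the only member whose siCon_IFNg arrays all lay above all siCon arrays. Rat OAS1 copies are near-identical in places, and how far each row of the array reads the other copies was not stated, so the division of signal among them is uncertain.

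Oas2 encodes a synthetase with a duplicated catalytic unit. Its levels were 8.44, 6.14 and 6.19 in siCon, 8.31, 6.88 and 6.65 in siCon_IFNg, 8.16, 5.33 and 5.32 in siCon_IFNg_GW, and 8.23, 6.55 and 6.56 in siSHP_IFNg_GW. Numbers 2 and 3 of the GW group were below background, so differences from them are lower bounds. The arrays numbered 1 lay between 8.16 and 8.44 in the 4 groups.

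Oasl and Oasl2 encode OAS-like proteins that carry ubiquitin-like domains. Oasl was at 10.68, 6.16 and 5.93 in siCon, at 11.52, 7.72 and 7.81 in siCon_IFNg, at 11.09, 7.20 and 6.97 in siCon_IFNg_GW and at 10.93, 8.36 and 8.55 in siSHP_IFNg_GW. Number 1 exceeded the mean of numbers 2 and 3 by 4.63 in siCon and by 2.47 in siSHP_IFNg_GW, the widest gap and the narrowest for this gene. Oasl2 had 11.33, 9.29 and 9.02 in siCon, 11.40, 11.07 and 10.86 in siCon_IFNg, 11.16, 8.68 and 8.85 in siCon_IFNg_GW, and 11.07, 10.51 and 10.64 in siSHP_IFNg_GW. In number 1 its level stayed between 11.07 and 11.40 in all 4 groups.

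Among the sensors, Ifih1 was at 9.50, 7.75 and 7.58 in siCon, 10.23, 9.20 and 9.09 in siCon_IFNg, 9.94, 7.84 and 7.75 in siCon_IFNg_GW, and 10.13, 9.11 and 9.37 in siSHP_IFNg_GW. Dhx58 had 9.21, 6.90 and 6.67 in siCon, 9.39, 8.40 and 8.35 in siCon_IFNg, 9.23, 6.41 and 6.58 in siCon_IFNg_GW, and 9.11, 8.24 and 8.22 in siSHP_IFNg_GW. Both helicase genes were high in numbers 2 and 3 of siCon_IFNg and siSHP_IFNg_GW and low in those of siCon and siCon_IFNg_GW. Zbp1 encodes a sensor of Z-form nucleic acid that can start necroptosis through Ripk3 and Mlkl. Its levels were 8.22, 5.36 and 5.17 in siCon, 8.08, 6.98 and 6.69 in siCon_IFNg, 7.97, 5.58 and 5.20 in siCon_IFNg_GW, and 7.77, 5.88 and 5.87 in siSHP_IFNg_GW. In numbers 2 and 3 it was below background in siCon, well above it with interferon-γ alone, and near it with GW, whether or not SHP siRNA was given.

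The comparison of siCon_IFNg with siCon asks how interferon-γ changed these genes. All 8 differences were positive, with a median of 1.18 against -0.03 for all genes, but over all 12 arrays 0 of 8 passed by limma at an adjusted p of 0.05 (2 at an unadjusted p under 0.05), against 0.121% of all genes (5.5% unadjusted). Mean levels went from 7.64 ± 1.73 to 9.71 ± 0.17 (SD, n = 3) for Oas1b, a difference of 2.07 (SE 0.84, 95% interval 0.21 to 3.93, adjusted p = 0.83), and from 6.60 ± 0.35 to 7.22 ± 0.24 for Oas1a, a difference of 0.62 (SE 0.24, adjusted p = 0.78). Those of the other 6 genes lay between 0.36 for Oas2 and 1.43 for Oasl. Groups did not overlap for 1 member, Oas1a; 3.59% of all genes lay apart in that direction. With the number as a block 2 members rose, Oas1a (SE 0.12, adjusted p = 0.049) and Ifih1 (difference 1.23, SE 0.24, adjusted p = 0.046), against 0.936% of all genes in either direction.

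Over numbers 2 and 3 alone, 8 of 8 members rose with interferon-γ, where 3.05% of all genes rose. Oas1b rose 7.88-fold (2.98, SE 0.22, adjusted p = 0.00020 by limma, n = 2 a group). Oasl2 rose 3.50-fold (1.81, SE 0.13, adjusted p = 0.00016), Oasl 3.30-fold (1.72, SE 0.12, adjusted p = 0.00017) and Dhx58 3.02-fold (1.59, SE 0.10, adjusted p = 0.00012). Ifih1 rose 2.79-fold, and Zbp1, from below background, at least 2.72-fold (log2 1.44). Oas1a (0.66, adjusted p = 0.039) and Oas2 (0.60, adjusted p = 0.0087) rose least, by 1.58-fold and 1.52-fold. In these arrays 8 of 8 members had groups that did not overlap, as did 16.7% of all genes in that direction.

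The change with interferon-γ differed between the numbers. Within number 1 the median difference of the 8 genes was 0.21, against 1.53 within number 2 and 1.60 within number 3. For Oas1b the differences were 0.24, 2.74 and 3.21, and for Oasl2 they were 0.07, 1.78 and 1.84. The difference in the change between number 1 and the others passed for 4 members, each with the smaller change in number 1, as it did for 2.43% of all genes in either direction. They were Oas1b (-2.73, SE 0.38, limma adjusted p = 0.011), Oasl2 (-1.73, adjusted p = 0.0071), Zbp1 (-1.71, adjusted p = 0.014) and Dhx58 (-1.41, adjusted p = 0.0071). This test sets 1 array per group in number 1 against 2, and takes the spread from numbers 2 and 3. Oas1a had -0.12 (95% interval -0.69 to 0.44, adjusted p = 0.93).

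**Figure D2:**
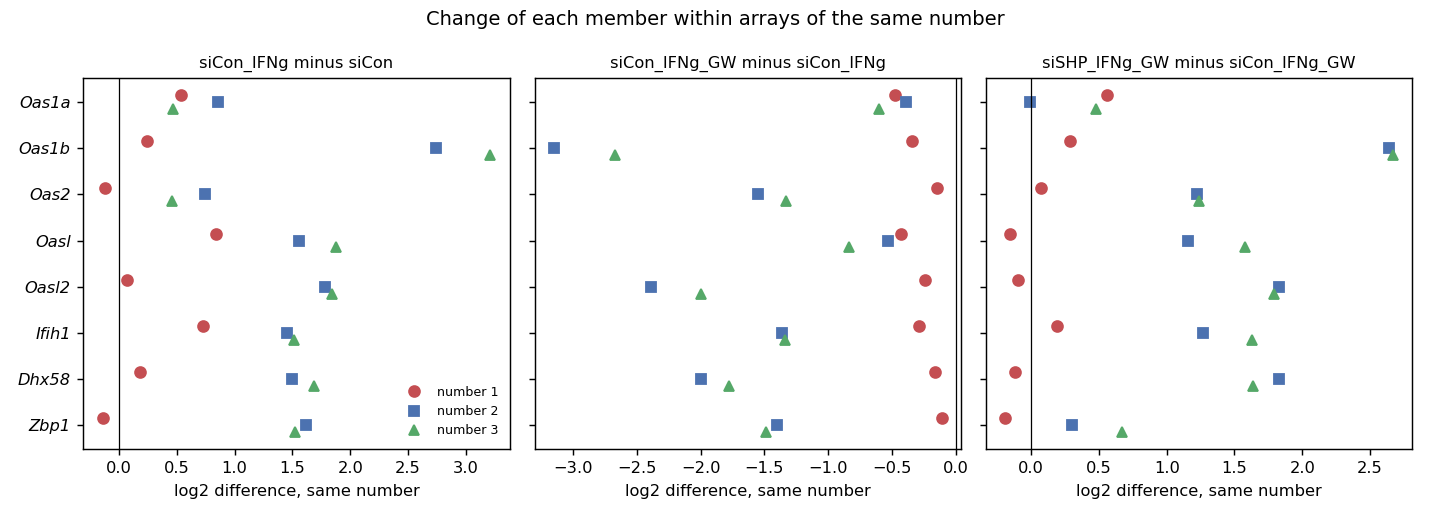
Log2 difference of each of the 8 genes between 2 groups, taken within arrays of the same title number (circles 1, squares 2, triangles 3), for interferon-γ, GW and SHP siRNA. Points of number 1 lie near 0 for most genes, with medians of 0.21, -0.27 and -0.01, while those of numbers 2 and 3 have medians of 1.53 and 1.60, -1.48 and -1.41, and 1.25 and 1.60.

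The effect of GW on cells that also received interferon-γ was read from siCon_IFNg_GW against siCon_IFNg. All 8 differences were negative, with a median of -1.01 against 0.00 for all genes. Over all 12 arrays 0 of 8 passed by limma (2 at an unadjusted p under 0.05), against 0.886% of all genes (11.4% unadjusted). Oas1b went from 9.71 ± 0.17 to 7.65 ± 1.61 (SD), a difference of -2.05 (SE 0.84, 95% interval -3.91 to -0.19, adjusted p = 0.37), and Oasl2 from 11.11 ± 0.27 to 9.57 ± 1.38, a difference of -1.55 (SE 0.68, adjusted p = 0.42). Groups did not overlap for Oas1a and Oas1b; 7.24% of all genes lay apart in that direction. With the number as a block 4 members fell, against 6.55% of all genes in either direction: Oas2 (-1.01, SE 0.23, adjusted p = 0.0305), Ifih1 (-0.99, SE 0.24, adjusted p = 0.037), Oas1a (-0.49, SE 0.12, adjusted p = 0.043) and Oasl2 (SE 0.39, adjusted p = 0.047). Dhx58 and Oas1b had adjusted p = 0.056 and 0.057 there.

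In numbers 2 and 3 alone, 7 of 8 members fell with GW, where 4.98% of all genes fell. Oas1b fell 7.52-fold (-2.91, SE 0.22, n = 2 per group, limma adjusted p = 0.00015), Oasl2 4.58-fold (-2.20, adjusted p = 3.3e-05) and Dhx58 3.70-fold (-1.89, adjusted p = 2.8e-05). Oas2 fell at least 2.59-fold (log2 1.37 or more), as its levels with GW were below background. Zbp1 fell too (adjusted p = 0.00067), from 6.98 and 6.69 to 5.58 and 5.20, the last below background, so no fold is given. Ifih1 fell 2.55-fold and Oasl 1.61-fold (-0.68, adjusted p = 0.010). Oas1a had -0.49 (95% interval -0.82 to -0.17, adjusted p = 0.063). All 8 genes had groups that did not overlap in these arrays, as did 25.3% of all genes in that direction.

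Within number 1 the median difference with GW was -0.27, and within numbers 2 and 3 it was -1.48 and -1.41. The change differed between number 1 and the others for 6 members by limma, each falling less in number 1, against 3.02% of all genes in either direction. The differences in the change were 2.57 for Oas1b, 1.95 for Oasl2, 1.72 for Dhx58, 1.34 for Zbp1, 1.29 for Oas2 and 1.06 for Ifih1 (adjusted p = 0.0029 to 0.035). For Oas1a (0.01, 95% interval -0.56 to 0.57) and Oasl (0.25, 95% interval -0.23 to 0.74) it did not pass. Microglia markers were lower with GW by a median of 0.46 on the log2 scale, with 12 of 14 negative and 0 past the threshold over all 12 arrays (8 lower with the block, and 9 lower and 1 higher over numbers 2 and 3). In these 3 fits 0.886%, 6.55% and 11.5% of all genes passed in either direction. The medians of the microglia markers within numbers 1, 2 and 3 were -0.52, -0.48 and -0.42, much alike in the 3 numbers, and their part in the falls of the RNA sensor genes was not tested.

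The levels with interferon-γ and GW were also set against those of untreated cells. Over all 12 arrays the median difference between siCon_IFNg_GW and siCon was 0.01 (-0.02 for all genes), 4 genes were positive and 4 negative, and 0 of 8 passed by limma (0 at an unadjusted p under 0.05) against 0.864% of all genes (11.3% unadjusted). With the block 0 of 8 passed too, against 6.84% of all genes. The intervals were wide: the 95% interval of Oas1b was -1.85 to 1.87 and that of Ifih1 -1.19 to 1.66. Over numbers 2 and 3 alone 2 members passed, in opposite directions, against 5.66% of all genes. Oasl was 2.05-fold higher than in siCon (1.04, SE 0.12, adjusted p = 0.0031) and Oas2 at least 1.70-fold lower (adjusted p = 0.0026). The other 6 differed by -0.39 for Oasl2 to 0.17 for Oas1a, and the 95% interval was -0.44 to 0.58 for Oas1b, -0.13 to 0.39 for Ifih1 and -0.53 to -0.06 for Dhx58. In these arrays the groups did not overlap for 5 members, 2 higher and 3 lower than in siCon, as for 23.9% and 31.2% of all genes; over all 3 numbers they overlapped for each member, and lay apart for 8.1% and 10.1% of all genes. Microglia markers were lower than in siCon by a median of 0.57 on the log2 scale (14 of 14 negative), with 1 lower past the threshold over all 12 arrays, 12 with the block and 7 over numbers 2 and 3, and their part in this comparison was not tested. This comparison shares the siCon arrays with that of interferon-γ and the GW arrays with that of GW.

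The comparison of siSHP_IFNg_GW with siCon_IFNg_GW asks whether SHP siRNA changed the genes when interferon-γ and GW were both present. All 8 differences were positive, with a median of 0.94 against -0.02 for all genes. Over all 12 arrays 0 of 8 members and 0% of all genes passed by limma, at an unadjusted p under 0.05 1 member and 2.29% of all genes. Oas1b went from 7.65 ± 1.61 to 9.52 ± 0.28 (SD, n = 3), a difference of 1.87 (SE 0.84, 95% interval 0.01 to 3.72, adjusted p = 1.0), and Ifih1 from 8.51 ± 1.24 to 9.54 ± 0.53, a difference of 1.03 (SE 0.65). Zbp1 had the smallest difference, 0.26 (95% interval -1.78 to 2.30). For 0 of 8 members did the groups lie apart with SHP siRNA higher, against 2.24% of all genes. With the block 0 members and 0% of all genes passed (7 members and 5.35% of all genes at an unadjusted p under 0.05), and Ifih1 had the lowest adjusted p, 0.601.

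Without the arrays numbered 1, 6 of 8 members rose with SHP siRNA, where 1.35% of all genes rose. Oas1b rose 6.28-fold (2.65, SE 0.22, n = 2 per group, limma adjusted p = 0.00073), Oasl2 3.50-fold (1.81, adjusted p = 0.00027) and Dhx58 3.33-fold (1.74, adjusted p = 0.00011). Ifih1 rose 2.73-fold (1.45, adjusted p = 0.00052), Oasl 2.59-fold (1.37, adjusted p = 0.00099) and Oas2, from below background, at least 2.24-fold (adjusted p = 0.00044). Oas1a (0.23, 95% interval -0.09 to 0.56, adjusted p = 0.72) and Zbp1 (0.49, 95% interval 0.15 to 0.82, adjusted p = 0.29) did not pass. In these arrays 7 members, Oas1a being the exception, had groups that did not overlap, as did 15.2% of all genes in that direction. Microglia markers had a median difference of 0.09 over all 12 arrays and 0.08 over numbers 2 and 3, with 0 past the threshold in both (0 and 1 at an unadjusted p under 0.05).

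Within number 1 the median difference with SHP siRNA was -0.01, and within numbers 2 and 3 it was 1.25 and 1.60. The change differed for 6 members by limma, against 0.721% of all genes in either direction: Oas1b (-2.36), Oasl2 (-1.90), Dhx58 (-1.85), Oasl (-1.53), Ifih1 (-1.26) and Oas2 (-1.16), with adjusted p = 0.0054 to 0.043. Zbp1 had -0.68 (95% interval -1.27 to -0.09, adjusted p = 0.34) and Oas1a 0.32 (95% interval -0.24 to 0.89, adjusted p = 0.66). The count of 6 fell to 3 without siCon_IFNg_GW replicate 2, to 2 without siCon_IFNg_GW replicate 3 and to 1 without siSHP_IFNg_GW replicate 3.

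**Figure D3:**
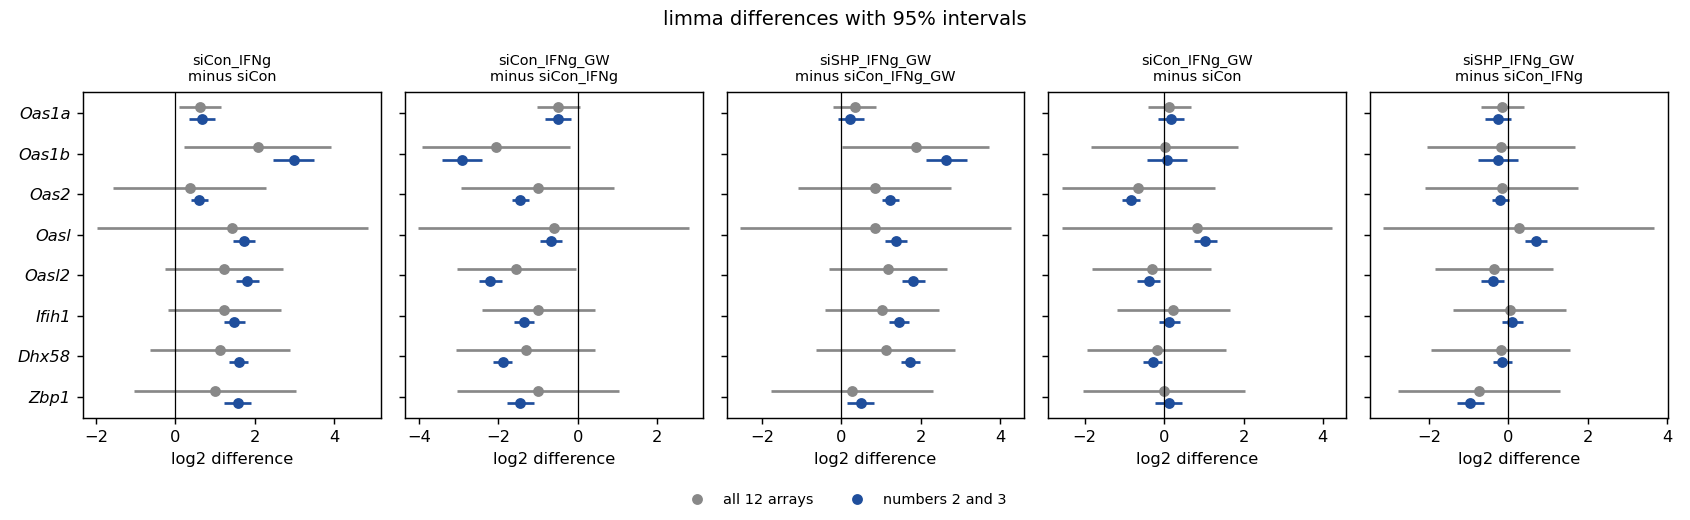
Log2 differences of the 8 genes in 5 comparisons, as points with 95% intervals by limma, over all 12 arrays (grey) and over numbers 2 and 3 alone (blue). The grey intervals are wide, such as -1.98 to 4.84 for Oasl with interferon-γ, and the blue ones are narrow, 1.44 to 2.00 for the same gene.

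The levels with SHP siRNA, interferon-γ and GW were also set against those with interferon-γ alone. Over all 12 arrays the median difference between siSHP_IFNg_GW and siCon_IFNg was -0.18 (-0.02 for all genes), and 0 of 8 passed by limma (0 at an unadjusted p under 0.05) against 0.303% of all genes (8.8% unadjusted). With the block 0 of 8 passed as well, against 3.08%. Over numbers 2 and 3 alone 2 members passed, against 6.21% of all genes. Zbp1 was 1.95-fold lower than with interferon-γ alone (-0.96, SE 0.15, adjusted p = 0.0096), and Oasl 1.61-fold higher (0.69, SE 0.12, adjusted p = 0.018). The other 6 ranged from -0.39 for Oasl2 to 0.10 for Ifih1, and the 95% interval was -0.77 to 0.25 for Oas1b and -0.39 to 0.09 for Dhx58. Groups did not overlap in these arrays for 6 members that were lower and 1 that was higher than with interferon-γ alone, as for 27.7% and 23.3% of all genes; over all 3 numbers they overlapped for each member, and lay apart for 7.79% and 6.33% of all genes. Microglia markers were lower here too, by a median of 0.37 (12 of 14 negative; 0 past the threshold over all 12 arrays, 3 with the block and 4 over numbers 2 and 3), and their part was not tested. This comparison shares its arrays with those of GW and of SHP siRNA.

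Arrays were also left out of the fit over all arrays, which has no term for the number. Leaving out any of the 12 arrays alone, or all 4 numbered 2 or all 4 numbered 3, gave 0 members past the threshold in each of the 5 comparisons of groups, and calls of members appeared only when all 4 arrays numbered 1 were left out together. In the other fits the gap between number 1 and the rest still widened the spread, so the absence of calls there says little about single arrays. For these comparisons no array was left out of the fit with the block or of that over numbers 2 and 3. How far those fits rest on single arrays was not tested. The count of all genes with interferon-γ was 22 over all arrays and 856 without replicate 1, and it was 0 without replicate 2 or replicate 3. With GW the counts were 161, 2081 and 0, and with SHP siRNA 0, 267 and 0.

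Other rat copies of OAS1 were listed too, and 6 of 8 had a row. Oas1d, Oas1e, Oas1f and Oas1h were below background on all 12 arrays, and Oas1k lay between 5.11 and 5.91, around it. Oas1i, on the same stretch of chromosome 12 and with the paired cores printed above, was at 9.65, 7.36 and 7.15 in siCon, 9.66, 9.08 and 8.90 in siCon_IFNg, 9.25, 7.04 and 6.97 in siCon_IFNg_GW, and 9.13, 8.61 and 8.78 in siSHP_IFNg_GW. In numbers 2 and 3 it was high in siCon_IFNg and siSHP_IFNg_GW and low in the other groups. It did not pass over all 12 arrays (1.16, -1.46 and 1.09 for interferon-γ, GW and SHP siRNA, limma adjusted p = 1, 0.46 and 1). Over numbers 2 and 3 it rose by 1.73 with interferon-γ (adjusted p = 0.00011), fell by 1.98 with GW (adjusted p = 3.1e-05) and rose by 1.69 with SHP siRNA (adjusted p = 0.00019). Of the 5 further copies with a promoter window, those of Oas1d, Oas1e, Oas1f and Oas1h held no ISRE core and that of Oas1i did.

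The pathway around these sensors was described by 37 other genes, of which 30 had a row: adaptors, ubiquitin ligases, kinases, the eIF2α kinases and their partners, RNA editing, and the necroptosis genes downstream of Zbp1. Over all 12 arrays 0 of 30 passed by limma with interferon-γ, GW or SHP siRNA (6, 6 and 0 at an unadjusted p under 0.05, where 5.5%, 11.4% and 2.29% of all genes did), and the medians were 0.06, -0.03 and 0.03. With the number as a block 1 rose with interferon-γ and 3 fell with GW, against 0.936% and 6.55% of all genes in either direction, so the count with GW was near the background. Rnf125, a ubiquitin ligase that restrains RIG-I-like receptors, rose by 1.44 with interferon-γ (SE 0.14, adjusted p = 0.0021) and fell by 1.22 with GW (SE 0.14, adjusted p = 0.0015). Its levels were 8.12, 7.12 and 6.88 in siCon, 9.56, 8.47 and 8.41 in siCon_IFNg, 8.46, 7.06 and 7.28 in siCon_IFNg_GW, and 8.89, 8.29 and 8.29 in siSHP_IFNg_GW. Its difference with interferon-γ was 1.44 in number 1 and 1.35 and 1.53 in numbers 2 and 3. Trim25, a ubiquitin ligase that activates the RNA sensor RIG-I, fell by 1.38 with GW (SE 0.31, adjusted p = 0.030), and Tlr3, the endosomal receptor for double-stranded RNA, by 0.97 (SE 0.20, adjusted p = 0.020). Against siCon, Traf6, a ubiquitin ligase of the Toll pathway, was higher by 0.46 with interferon-γ and GW with the block (SE 0.10, adjusted p = 0.031), and did not pass over all 12 arrays (adjusted p = 0.34). It was the only one of the 30 past the threshold in that blocked comparison, where 6.84% of all genes passed.

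In the fit without number 1, 9 of the 30 rose with interferon-γ, 9 fell and 2 rose with GW, and 7 rose with SHP siRNA, with medians of 0.09, -0.00 and 0.05. The share of all genes that passed in either direction was 4.71%, 11.5% and 1.47%. Irf7, named after its values were seen, is the regulatory factor that drives interferon-α genes. It was at 12.12, 8.55 and 8.04 in siCon, 12.13, 10.28 and 10.17 in siCon_IFNg, 11.91, 7.81 and 7.98 in siCon_IFNg_GW, and 12.01, 10.22 and 10.41 in siSHP_IFNg_GW. Number 1 was near 12 in every group. Mavs, the adaptor of Ifih1, had differences of -0.07, 0.21 and -0.05 for the 3 treatments over numbers 2 and 3, and did not pass (adjusted p = 0.73, 0.18 and 0.94).

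Of 16 genes of the interferons and their signal, 14 had a row. Irf1 rose by 2.91 with interferon-γ over all 12 arrays (SE 0.23, limma adjusted p = 0.00071), the only one of the 14 that passed there. Its difference in number 1 was 2.60, beside 2.99 and 3.13 in numbers 2 and 3: its levels were 9.30, 8.70 and 8.60 in siCon and 11.90, 11.70 and 11.73 in siCon_IFNg. Its level was 11.73, 11.07 and 10.87 with GW, still 2.35 above siCon (SE 0.23, adjusted p = 0.0017), and 12.04, 12.34 and 12.35 with SHP siRNA, a difference of 1.02 from the GW group that did not pass (SE 0.23, adjusted p = 1). Without number 1, 4 of the 14 genes rose with interferon-γ, 4 fell and 1 rose with GW, and 4 rose with SHP siRNA, beside 4.71%, 11.5% and 1.47% of all genes in either direction. With the block Jak2, a kinase of the interferon-γ receptor, rose by 0.98 with interferon-γ (SE 0.11, adjusted p = 0.0035) and fell by 0.68 with GW (SE 0.11, adjusted p = 0.0067), and Ifnar1, a chain of the type I interferon receptor, fell by 0.34 with GW (SE 0.09, adjusted p = 0.046).

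Ifnb1, the gene of interferon-β, was well above background in the arrays numbered 1 of the 3 groups with interferon-γ. Its levels, described after they were seen, were 5.0, 4.90 and 4.72 in siCon, 8.35, 4.74 and 4.76 in siCon_IFNg, 7.51, 5.34 and 4.87 in siCon_IFNg_GW, and 7.54, 5.20 and 5.51 in siSHP_IFNg_GW. In siCon all 3 arrays were below background. The part of interferon-β in the levels of the 8 members was not tested. Ifnb1 did not pass in any of the comparisons between groups (with interferon-γ 1.07, SE 0.99, limma adjusted p = 1). Those comparisons do not set number 1 against the others. With interferon-γ Ifnb1 changed by 3.35 in number 1, and by -0.16 and 0.03 in numbers 2 and 3. In the test of the change with interferon-γ in number 1 against the others, the largest difference among the 14 signal genes was that of Ifnb1, 3.41. Stat2 and Irf9, which take part in binding at ISREs, were at 10.72 and 9.79 in siCon number 1 and at 9.14 to 9.25 and 8.21 to 8.29 in siCon numbers 2 and 3.

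**Figure D4:**
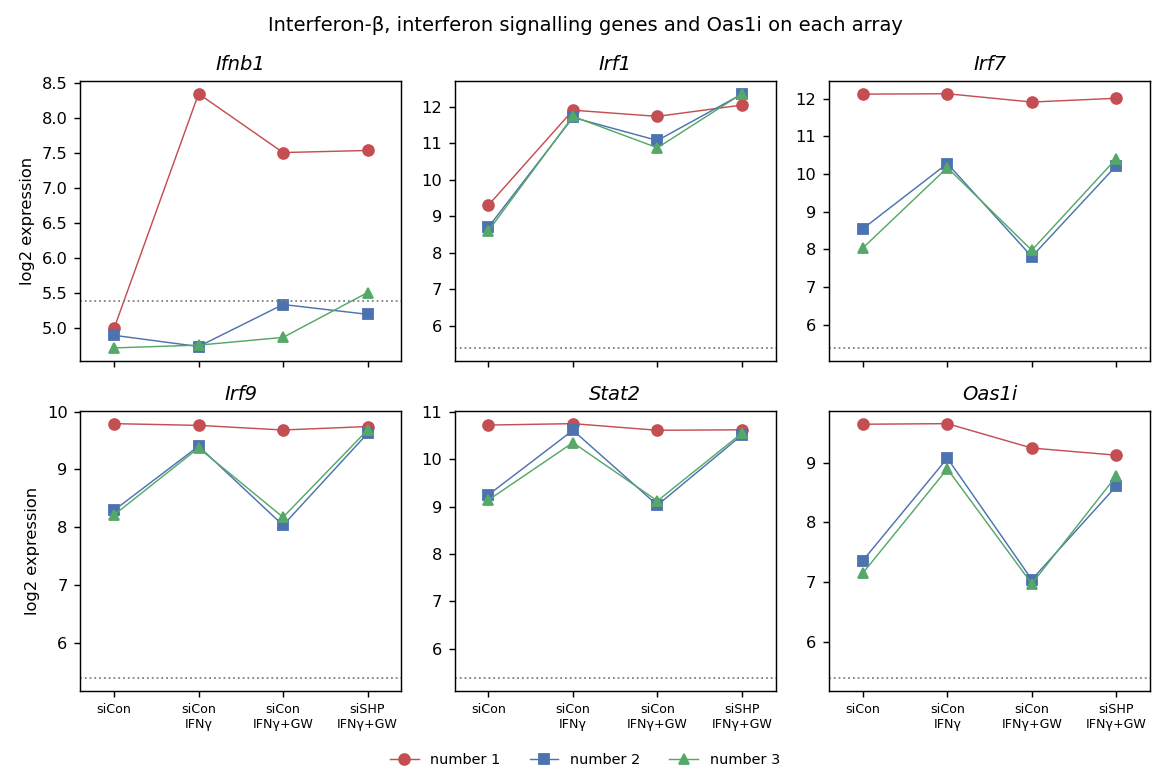
Log2 expression of Ifnb1, Irf1, Irf7, Irf9, Stat2 and Oas1i on the 12 arrays by group, with points joined by title number and the background level of 5.39 dotted. Ifnb1 is above 7.5 in number 1 of the 3 groups with interferon-γ and at or near background elsewhere, while Irf1 is higher with interferon-γ in all 3 numbers.

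The genes whose pattern over the 12 arrays lay nearest to the mean pattern of the 8 members were found after each gene was centred on its own mean. The measure was the root mean square difference over the 12 arrays among 12278 genes above background, where the median gene had 1.07. The 10 nearest were Herc6 (0.20), Oas1i (0.26), Xaf1 (0.28), Cfb (0.30), Ifi44l (0.30), Mx2 (0.30), RT1-S3 (0.32), Ifit2 (0.32), Gbp4 (0.33) and Psmb8 (0.33). For single members the nearest gene was Oas1i for Oasl2 (0.11) and for Dhx58 (0.21), Gbp4 for Ifih1 (0.23), Psmb8 for Oas2 (0.24), Cxcl17 for Zbp1 (0.23), Litaf for Oas1a (0.16) and RGD1309362 for Oas1b (0.28). For Oasl it was Mx1 (0.68). The measure grows with a gene's own spread, and the root mean square deviation from its own mean was widest for Oasl (1.91) and narrowest for Oas1a (0.37). These values are descriptions, and the arrays share the difference between number 1 and the others.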

How the data were processed

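The deposited table held 1 log2 expression value per transcript cluster and array (36685 rows, 12 arrays, values from 1.01 to 13.43, 0 missing). Per the labels' protocols, RNA came from a Trizol extraction, and fragmented sense cDNA carried the biotin label. The authors' correction, summarisation and normalization steps were not given in the sources used here. The log base was read from the values' range. The series text counts 4 arrays of an earlier series among the 12, without saying which.

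A single gene was annotated for 18511 rows, several genes for 575 and none for 17599. Among the first, 18394 matched the RefSeq table of assembly GRCr8 by Entrez ID, and 0 symbols changed. For 291 genes with several rows the row with the highest mean was used; each member had 1 row. Columns of other samples numbered 0.

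Comparisons used limma 3.58.1 (R 4.3.3): a linear model of group means over the 12 arrays, moderated by eBayes, with Benjamini-Hochberg adjustment over 18166 genes and a threshold of 0.05. Neither this fit nor that over numbers 2 and 3 had a term for the title number. The fits were tested on simulated data. Title numbers were checked for pairing by correlating deviations from group means between arrays. Correlations were 0.63 to 0.77 within number 1, 0.48 to 0.58 within number 2 and 0.43 to 0.55 within number 3, all above 0.1. Pairing by title number was assumed on that basis. However, deviations cancel out within a group, so a shift of number 1 alone gives numbers 2 and 3 shared deviations. The check thus cannot show whether arrays within number 2, or within number 3, belong together. Alternatives were the number as a block, leaving out numbers or arrays, array centring, quantile normalization, a filter on dim genes, only the arrays compared, the mean of a gene's rows, and a trended robust prior. A level below the 95th percentile of background genes was taken as a bound. Members, lists and tests were chosen with earlier results of these data known. The members were named throughout; other pathway and signal genes by values only where they passed over all genes with or without the block, besides Nr0b2 and the genes nearest in pattern. Irf7, Ifnb1, Stat2, Irf9, Mavs, Oas1i, Oas1k and the single marker genes were named after their values were seen. The number of arrays limits precision. Plots were made in Python 3.11.15 (matplotlib 3.10.9).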

Additional observations from a re-analysis of the deposited data

Results flagged for a closer look

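The results below stand out because the change in the arrays numbered 1 differed, by limma's test of that difference, from the change in numbers 2 and 3. Each value is the log2 change in number 1 minus that in numbers 2 and 3, with 1 array per group in number 1. Number 1 was set apart after earlier results of these data had shown that it differed. With interferon-γ it was -2.73 for Oas1b, -1.73 for Oasl2, -1.71 for Zbp1 and -1.41 for Dhx58. For GW it was 2.57 for Oas1b, 1.95 for Oasl2, 1.72 for Dhx58, 1.34 for Zbp1, 1.29 for Oas2 and 1.06 for Ifih1. For SHP siRNA it was -2.36 for Oas1b, -1.90 for Oasl2, -1.85 for Dhx58, -1.53 for Oasl, -1.26 for Ifih1 and -1.16 for Oas2. In each of these the change was nearer to 0 in number 1 or of opposite sign there. The counts behind them were 4, 6 and 6 members, and leaving out single arrays of numbers 2 or 3 gave 4 to 5, 4 to 5 and 1 to 4.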

How the results depend on the processing

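Without single arrays or whole numbers, the count of genes passing ran from 0 to 856 with interferon-γ (members 0 to 8), 0 to 2081 with GW (0 to 7), 0 to 267 with SHP siRNA (0 to 6), 0 to 1028 for siCon_IFNg_GW against siCon (0 to 2) and 0 to 1129 for siSHP_IFNg_GW against siCon_IFNg (0 to 2). For number 1 it ran from 6628 to 7101 for the level (members 8 in each fit), 265 to 382 for the change with interferon-γ (4 to 5), 314 to 505 with GW (4 to 5) and 41 to 141 with SHP siRNA (1 to 4). With the replicate block, counts were 170 with interferon-γ (2 members), 1189 with GW (4 members), 1242 and 559 for the other comparisons that had calls; the block gave 0 members in the other 3 comparisons. With only the arrays compared they were 7, 4, 32 and 6. Centring on array medians gave 79 with GW, 79 for siCon_IFNg_GW against siCon and 30 for siSHP_IFNg_GW against siCon_IFNg, where leaving out dim genes gave 96. For the change in number 1, leaving out dim genes gave 7 members with interferon-γ, 979 genes with GW and 373 with SHP siRNA, and a trended robust prior 730 genes (7 members), 1125 and 495. The causes were not tested, apart from fewer arrays or genes where these were left out.

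Signs turned when single arrays or numbers were left out, over these ranges: with interferon-γ Oas2 -0.15 to 1.12; with GW Oasl -1.93 to 0.65; with SHP siRNA Zbp1 -0.37 to 1.12. For siCon_IFNg_GW against siCon they were Oas1a -0.04 to 0.31, Oas1b -0.91 to 0.99, Oas2 -1.59 to 0.11, Oasl -0.51 to 2.37, Oasl2 -1.11 to 0.41, Ifih1 -0.48 to 0.85, Dhx58 -1.10 to 0.62 and Zbp1 -0.86 to 0.98 (0.04 after quantile normalization). For siSHP_IFNg_GW against siCon_IFNg they were Oas1a -0.39 to 0.03, Oas2 -0.73 to 0.35, Oasl -0.56 to 1.51, Ifih1 -0.26 to 0.40 and Dhx58 -0.49 to 0.14. For the change in number 1, Oas1a ran from -0.29 to 0.04 with interferon-γ and from -0.13 to 0.15 with GW (-0.10 after centring). None of the results whose sign turned had passed over all 12 arrays. Of the single-gene values and the medians over members under an alternative, 1287 were counted as the same, 38 newly passed, 32 no longer passed and 49 turned sign. For a gene, the same means that direction and side of the threshold were kept. For a median, it means a shift no larger than the typical SD of the members within groups.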
